A study of Mus musculus with 2 samples.

Results

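Dlk1, Meg3, Mirg, Peg12 and Mcts2 are mouse imprinted genes, each transcribed mainly from the copy inherited from 1 parent. They were compared between D351 and D16, a pair of mesoangioblast clones. The 5 genes were taken as all genes among these names to which the platform annotation assigned at least 1 probe set of its own. They came to 9 probe sets of 11868, or 5 of 5928 named genes, and all 9 probe sets were above the floor defined below on at least 1 array. The genes were picked because their values on these same arrays differed, so the values of the 5 are given as a description, with no test.

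Mesoangioblasts are progenitor cells associated with embryonic vessels that can give rise to several mesodermal tissues. Both clones came from dorsal aorta of C57BL6 embryos at embryonic day 9.5. Single cells were cloned from a dissociated explant on a layer of growth-arrested primary embryonic fibroblasts and then expanded on gelatin. D351 and D16 are each 1 clone, each measured with 1 array of total RNA on the C array of the murine U74 oligonucleotide set. No treatment or genetic change was labelled, and the comparison asked how the clones differ.

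Imprinting marks, mostly DNA methylation laid down in egg or sperm, keep 1 parental allele of a gene silent. In the Dlk1-Meg3 domain the paternal chromosome gives the protein-coding genes, among them Dlk1, while the maternal chromosome gives a run of non-coding RNAs that includes Meg3, Rian and Mirg. The domain is active in the embryo and placenta, and its non-coding RNAs are often silenced in cultured stem cells. Peg12 lies in the imprinted cluster that corresponds to the human Prader-Willi region, and Mcts2 lies inside an intron of H13. The array reads the RNA of both alleles together, so it does not show which allele a signal came from.

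In D351 the maternally expressed Meg3 and Mirg gave much brighter signals than in D16, and the paternally expressed Dlk1, Peg12 and Mcts2 gave dimmer ones. By the brightest probe set of each gene, Meg3 was 6.94-fold and Mirg at least 26.9-fold higher in D351. The Meg3 reading in D16 was not above the brightest negative control, and with the floor at that control the lower bounds were 6.70-fold for Meg3 and 15.4-fold for Mirg. Mcts2 was 2.86-fold, Dlk1 2.54-fold and Peg12 2.23-fold higher in D16. All 6 probe sets of the maternally expressed genes had positive ratios and all 3 of the paternally expressed genes negative ones. Here the log2 ratio is D351 minus D16. Intensities at or below 6.4, the median of all values on both arrays, were called dim and raised to this floor, so that a ratio with a dim value is a lower bound. In the whole table, 9.74% of 6828 measured probe sets passed 2-fold towards D351 and 9.75% towards D16. Because the genes were chosen on this contrast, nothing is read from their count of 5 of 5 past 2-fold, beside 20.5% of 3934 measured genes, 10.3% towards D351 and 10.2% towards D16.

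Mirg is named for the microRNA precursors that lie in it, and some of them are shown because its RNA had the widest gap among the 5 genes. In the RefSeq sequences of GRCm38.p6, 19 mature microRNAs from 10 hairpins lie within Mirg. The array measured the host transcript and none of these microRNAs. The capitals mark the seed, bases 2 to 8, with which a microRNA pairs to its targets.
mmu-miR-453 (chr12:109735669-109735692, plus strand): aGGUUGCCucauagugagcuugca
mmu-miR-496a-5p (chr12:109739132-109739152, plus strand): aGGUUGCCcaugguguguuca
mmu-miR-409-5p (chr12:109743172-109743194, plus strand): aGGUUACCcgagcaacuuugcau
mmu-miR-410-5p (chr12:109743729-109743749, plus strand): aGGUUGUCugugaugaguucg
mmu-miR-154-3p (chr12:109738474-109738495, plus strand): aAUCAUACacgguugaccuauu
mmu-miR-377-3p (chr12:109740553-109740574, plus strand): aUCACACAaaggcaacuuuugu
mmu-miR-369-3p (chr12:109743466-109743486, plus strand): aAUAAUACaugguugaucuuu
mmu-miR-410-3p (chr12:109743764-109743784, plus strand): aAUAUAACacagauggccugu
The 19 sequences held 18 different seeds, and mmu-miR-453 and mmu-miR-496a-5p shared theirs. Of the 19, only the first 4 printed open with AGGUU, as do 6 of 1679 mature sequences in the whole table. Because this opening was taken from these same sequences, nothing is read from the counts.

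For Meg3 and Mcts2, windows of 250 bases before to 50 after the annotated start are printed, because these are the genes with a probe set that carries no design mark and they lay in opposite directions. CpG dinucleotides, the sites of DNA methylation, are in capitals.
Meg3 (chr12:109540746-109541045, plus strand): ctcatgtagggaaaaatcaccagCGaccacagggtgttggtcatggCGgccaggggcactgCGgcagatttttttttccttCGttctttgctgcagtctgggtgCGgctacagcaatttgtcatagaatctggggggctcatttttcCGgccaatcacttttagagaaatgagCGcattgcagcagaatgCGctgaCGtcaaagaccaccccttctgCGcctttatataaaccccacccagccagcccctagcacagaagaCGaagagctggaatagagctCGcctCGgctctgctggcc
Mcts2 (chr2:152686898-152687197, plus strand): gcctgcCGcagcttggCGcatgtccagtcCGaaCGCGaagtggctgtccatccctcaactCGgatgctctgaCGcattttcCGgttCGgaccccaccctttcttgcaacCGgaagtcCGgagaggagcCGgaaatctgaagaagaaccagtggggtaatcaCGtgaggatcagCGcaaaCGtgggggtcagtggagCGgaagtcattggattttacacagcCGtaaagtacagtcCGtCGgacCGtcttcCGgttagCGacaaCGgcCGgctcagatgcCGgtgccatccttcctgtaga
The Mcts2 window held 25 CpGs and the Meg3 window 13. The other members held fewer, with 12 for Peg12, 10 for Mirg, 9 for Dlk1 and 1 for a second start of Meg3, against a median of 7 over 32851 windows. A search for TGACGTCA, the cAMP response element, which reads the same on both strands, found it in the first Meg3 window only, with its first base at -57 from the start. This motif occurred in 1.79% of all windows. Methylation was not measured in these samples.

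Of the maternally expressed genes, Meg3, a long non-coding RNA with growth-restraining activity in cell lines, was read by 3 probe sets. The probe set 136641_at had an intensity of 78.0 in D351 and was dim at 1.3 in D16, at least 12.2-fold higher in D351. By 166581_r_at the intensity was 75 in D351 and 10.8 in D16, a log2 ratio of 2.80. The third, 138993_r_at, stood at 9.7 in D351 and was dim at 5.8 in D16, at least 1.52-fold. The D351 readings of the first pair were thus alike, and the D16 readings of all 3 were no higher than the brightest negative control, 11.2. Probe sets of bacterial and yeast transcripts served as these controls.

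Mirg, the microRNA-containing gene at the far end of the non-coding run, was also read by 3 probe sets. By 170430_f_at it had an intensity of 172 in D351 and 1.3 in D16, where it was dim. The probe set 170091_f_at stood at 125 in D351 and 1.8 in D16, at least 19.5-fold higher in D351. In contrast, 169439_r_at read 8.9 in D351 and 6.9 in D16, both within the range of the negative controls. The signal in D351 therefore rests on the 2 probe sets marked f, whose probes can be shared by related transcripts. The r and i marks stand for relaxed probe selection and for an incomplete set of specific probes.

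Dlk1, a transmembrane protein with EGF-like repeats that is related to the Notch ligands and restrains adipocyte formation, was read by 169192_i_at only. Its intensity was 20.5 in D351 and 52.0 in D16, a log2 ratio of -1.34. Both readings were above the negative controls. Peg12, also called Frat3, belongs to a family of proteins that bind the kinase GSK3 in Wnt signalling. By 132039_f_at, its only probe set, it stood at 84.4 in D351 and 188 in D16, with a log2 ratio of -1.15. The f mark means that these probes can be shared by related transcripts, and whether they also read other Frat genes was not tested. Mcts2 is an intronless copy of Mcts1, which encodes a factor of translation initiation and reinitiation. By the unmarked 165812_at it stood at 48.5 in D351 and 139 in D16, with a log2 ratio of -1.52. Whether 165812_at also reads Mcts1 was not tested. The ratios of the 3 paternally expressed genes spanned -1.52 to -1.15, so they lay close together, while Meg3 was at 2.80 and Mirg had a lower bound of 4.75.

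**Figure D1:**
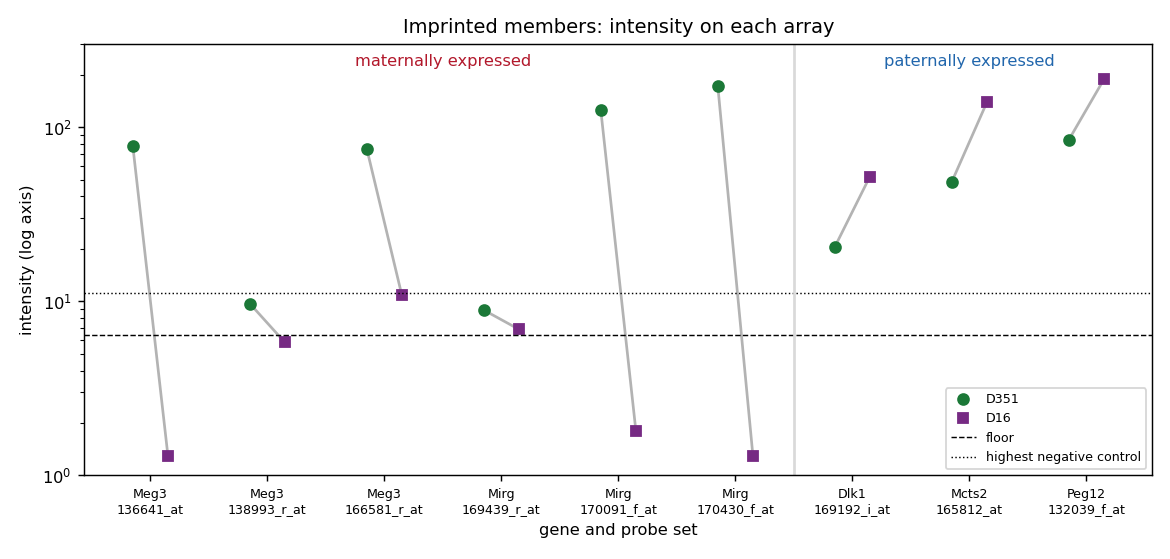
Intensity (log axis) of each of the 9 probe sets on the D351 array (circles) and the D16 array (squares), 1 array each and so without error bars; the lines mark the floor of 6.4 and the highest negative control of 11.2. The 6 probe sets of Meg3 and Mirg slope down towards D16, 2 of them only slightly, and the 3 of Dlk1, Mcts2 and Peg12 slope up.

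No clone had a second array, so no spread between cultures could be set beside these ratios. As the nearest guide to measurement error, pairs of probe sets for the same gene were compared in 409 genes, and their log2 ratios had an SD of 0.67 per probe set. The ratios of 138993_r_at and 169439_r_at, 0.60 and 0.37, were within this value. The other 7 were larger, which their choice on these arrays would give, and the SD covers probe sets and not cultures. The hybridization controls, added to the samples in equal amounts by design, were dimmer in D351 by a median log2 ratio of -0.67. Scaled to them, Mcts2, Dlk1 and Peg12 were still lower in D351, at -0.84, -0.67 and -0.48, but none was past 2-fold and Dlk1 and Peg12 were within the SD of 0.67, while the median of all genes moved to 0.58. Meg3 and Mirg became 3.47 and at least 5.09. The gap between Meg3 and Dlk1, 4.14 log2, was not changed by such scaling, because all 4 values were above the floor before and after it.

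**Figure D2:**
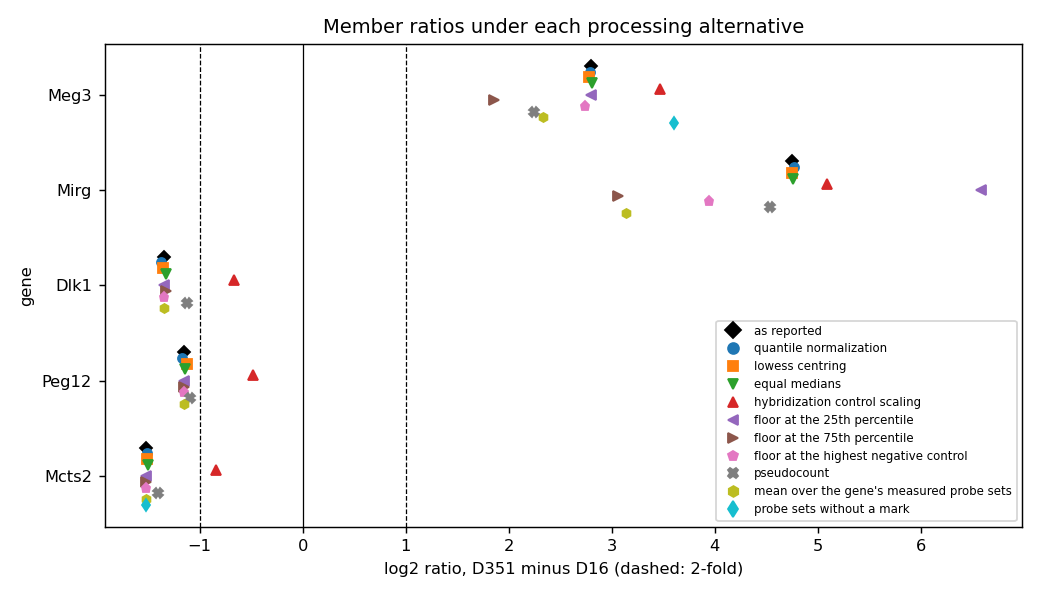
Log2 ratio (D351 minus D16) of each gene as reported (black diamonds) and under each processing alternative (coloured symbols), with dashed lines at 2-fold. No symbol crosses 0, and only scaling to the hybridization controls brings Dlk1, Peg12 and Mcts2 inside the 2-fold lines.

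Within the Dlk1-Meg3 domain the array held 6 genes of the imprinted lists, which lie in the order Begain, Dlk1, Meg3, Rian, Mirg and Dio3 on chromosome 12. Rian, the maternally expressed RNA that hosts small nucleolar RNAs between Meg3 and Mirg, stood at 10.2 in D351 and 6.7 in D16. Its log2 ratio of 0.61 had the sign of its neighbours, but both readings were below the brightest negative control. Begain, whose paternal expression is known best in sheep, was dim at 6.4 in D351 and read 22.8 in D16, at least 3.56-fold higher in D16. Dio3, the deiodinase that inactivates thyroid hormone and is expressed mainly from the paternal allele, went against the other paternally expressed genes. It read 10.4 in D351 and was dim at 0.9 in D16, at least 1.63-fold higher in D351, although the D351 value is within the negative-control range. The antisense gene beside it, Dio3os, read 43.0 in D351 and 21.1 in D16, a log2 ratio of 1.03. How the array's probes treat strand is not given in the sources used here.

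Ratios around the domain went in both directions. Of the 20 named array genes nearest to Mirg other than Dlk1 and Meg3, 10 on each side, 15 were measured, with a median log2 ratio of 0.089. Of these, 2 passed 2-fold towards D351, namely Dio3os and the creatine kinase gene Ckb, at 40.7 in D351 and 8.0 in D16. Another 4 passed 2-fold towards D16. They were Begain, Gm33682 (dim at 4.0 in D351 and 22.0 in D16), Cyp46a1, a cholesterol hydroxylase (29.9 in D351 and 87.9 in D16), and Cinp, a partner of cyclin-dependent kinases (10.9 in D351 and 27.9 in D16). Begain is on the imprinted lists, while Ckb, Gm33682, Cyp46a1 and Cinp are not. Over all measured genes, 10.3% passed 2-fold towards D351 and 10.2% towards D16, beside 2 and 4 of the 15 here. Nothing particular to this stretch is read from so few genes. The median of the 150 measured genes of chromosome 12 was -0.020.

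**Figure D3:**
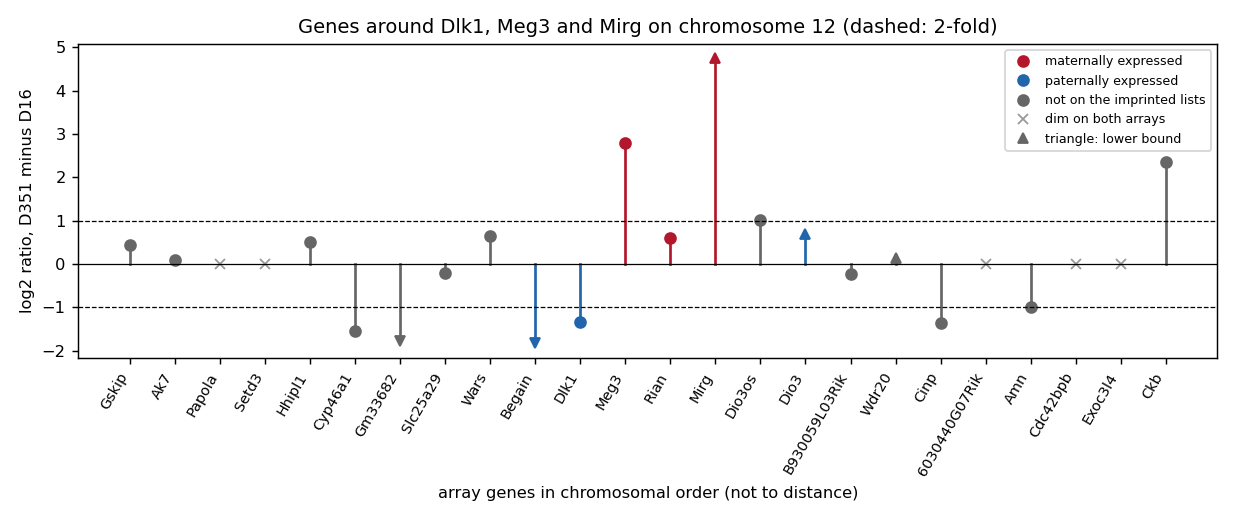
Log2 ratio (D351 minus D16) of the named array genes around Dlk1, Meg3 and Mirg in chromosomal order, coloured by expressed allele, with triangles for lower bounds and crosses for genes dim on both arrays. Begain and Dlk1 lie below the lower 2-fold line and Meg3 and Mirg above the upper one, with Rian between them at 0.61.

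Mcts2 and its host gene H13 lay in opposite directions. H13, which encodes signal peptide peptidase and is expressed from the maternal allele as a full-length transcript, read 31.7 in D351 and 21.2 in D16 by 166623_at, a log2 ratio of 0.58. This ratio was within the SD of 0.67 between probe sets of a gene. It exceeded that of Mcts2 by 2.10 log2, a gap set largely by the choice of Mcts2 on these same arrays. Since both genes were above the floor in both clones, scaling of the arrays leaves the gap unchanged, which lends it no support. A second H13 probe set was dim on both arrays. Among the 20 array genes nearest to Mcts2, 13 were measured and the median was 0.47, against -0.022 for all measured genes. Of the 13, 1 passed 2-fold towards D351 and 2 towards D16, beside 10.3% and 10.2% of all measured genes. Dusp15, a phosphatase gene, was higher in D351 (66.6 in D351 and 9.9 in D16), and Sox12 (35.6 in D351 and 75.2 in D16) and 6820408C15Rik (dim at 5.3 in D351 and 17.1 in D16) were higher in D16. Denr, whose product pairs with MCT-1 on the ribosome, stood at 18.1 in D351 and 18.2 in D16. The other partner measured, the translation factor gene Eif2d, stood at 8.4 in D351 and 6.6 in D16.

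Around Peg12 on chromosome 7, 11 of the 20 nearest array genes were measured, with a median of -0.49, and 3 had positive and 8 negative ratios. Over all measured genes the median was -0.022, and 51% had negative ratios. Of the 11, 0 passed 2-fold towards D351 and 2 towards D16, beside 10.3% and 10.2% of all measured genes. No shift of this stretch is read from so few genes. Lins1 was past 2-fold, at 7.2 in D351 and 66.2 in D16, as was the orphan nuclear receptor gene Nr2f2, at 112 in D351 and 276 in D16. Herc2, a neighbour that is not on the imprinted lists, read 69.3 in D351 and 58.2 in D16, and Ube3a was dim on both arrays. Of the Frat and GSK3 list of 13 genes, 3 were on the array and none passed 2-fold, beside 20.5% of all measured genes in either direction. The kinase gene Gsk3b stood at 39.5 in D351 and 31.8 in D16, and Csnk1e at 191 in D351 and 332 in D16.

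Other imprinted genes were taken from a list of 74, 40 maternally and 34 paternally expressed in at least 1 mouse tissue. Imprinting of several of them is limited to placenta or brain. Of the 18 on the array, 11 were measured, and Gnas, whose expressed allele depends on the transcript, was dim on both arrays. All 5 measured maternally expressed genes had positive log2 ratios, with a median of 0.58, and 5 of 6 measured paternally expressed genes had negative ones, with a median of -0.23. The median of all measured genes was -0.022, and 48.7% of them had positive and 51% negative ratios. Only Begain was past 2-fold, beside 20.5% of all measured genes in either direction. The ratios of the maternally expressed genes, from 0.30 to 0.61, were each smaller than the SD of 0.67 between probe sets of a gene. Among the paternally expressed genes, those of Inpp5f, Peg13, Plagl1 and Airn, from -0.37 to -0.07 by brightest probe set, were also smaller in size. The bounds of Begain, -1.83, and Dio3, 0.70, were larger. Rian, Begain and Dio3 of this list lie in the Dlk1-Meg3 domain and H13 lies around Mcts2, so these genes are not independent of the members in position. Scaled to the hybridization controls, the 5 maternally expressed genes kept positive ratios, with a median of 1.13, but 6 of 7 paternally expressed genes became positive too, with a median of 0.39, against 0.58 for all genes.

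Grb10, an adaptor that restrains insulin and growth factor signalling, stood at 51.1 in D351 and 41.5 in D16. The transporter gene Slc22a18 had an intensity of 132 in D351 and 95.9 in D16, and Pon3, a paraoxonase, 15.6 in D351 and 10.3 in D16. On the paternal side the transcription factor gene Plagl1 read 234 in D351 and 262 in D16. Peg13, a non-coding RNA, read 98.4 in D351 and 120 in D16, and its second probe set, at 31.6 in D351 and 45.6 in D16, lay in the same direction. Inpp5f, a phosphoinositide phosphatase, read 53.8 in D351 and 69.3 in D16. These differences were all under 2-fold. Airn, the non-coding RNA that runs antisense to Igf2r, had 3 probe sets with negative ratios of very unequal size. They read 41.6 in D351 and 43.7 in D16, 10.5 in D351 and 14.1 in D16, and 12.1 in D351 and 54.0 in D16.

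**Figure D4:**
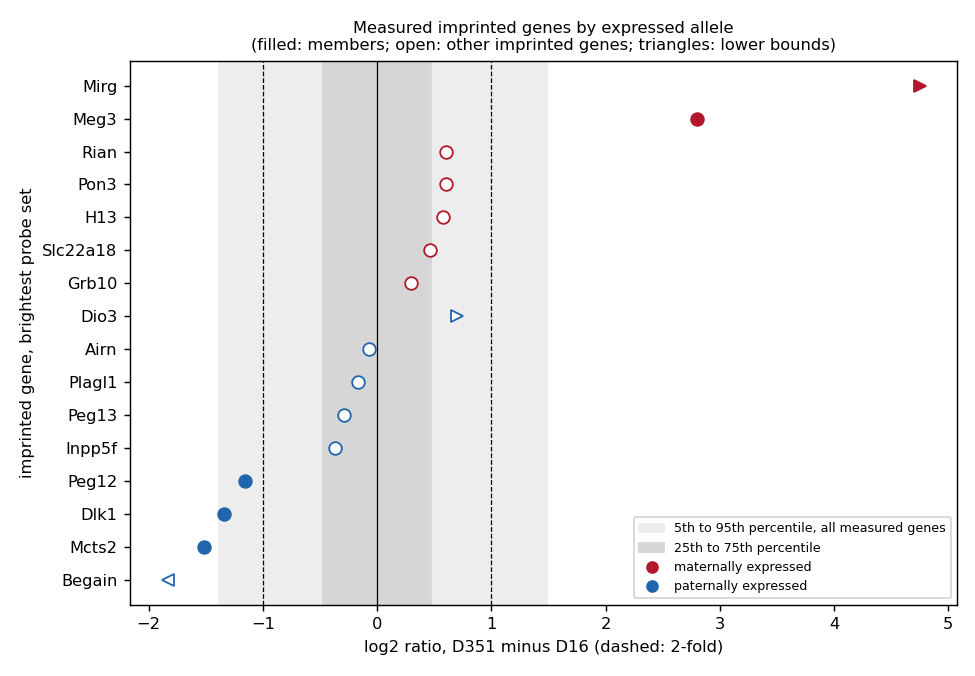
Log2 ratio (D351 minus D16) of all 16 measured imprinted genes by expressed allele, filled for the 5 members and open for the 11 others, with grey bands for the middle 50% and 90% of 3934 measured genes and triangles for lower bounds. All maternally expressed genes lie right of 0 and all paternally expressed genes but Dio3 left of it; the open symbols other than Begain lie inside the 2-fold lines.

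Among regulators of imprints, of 15 on the array, 11 were measured, and 3 passed 2-fold towards D16 and 0 towards D351, with a median of -0.31; over all measured genes the shares were 10.2% and 10.3%, and the median -0.022. Scaled to the hybridization controls, 2 of 10 measured regulators passed towards D16 and 1 towards D351, and their median was 0.24. Of all 3956 genes measured under that scaling, 145 passed towards D16 and 1089 towards D351, with a median of 0.58. With the floor at the highest negative control, with unmarked probe sets or with a 3-fold rule, 1 regulator passed towards D16. Uhrf1, which guides the maintenance DNA methyltransferase to newly copied DNA, stood at 12.5 in D351 and 33.4 in D16. Dnmt3l, the cofactor that helps set methylation in germ cells, was dim at 3.7 in D351 and read 21.8 in D16. The histone methyltransferase gene Suv39h2 was dim at 4.1 in D351 and read 19 in D16. With the floor at 20.7, the pooled 75th percentile, none of the 3 passed 2-fold. Trim28, a corepressor that keeps imprints methylated in the early embryo, read 392 in D351 and 574 in D16 by its brightest probe set and 22.7 in D351 and 18.7 in D16 by another.

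In the Notch pathway, in which Dlk1 is a non-canonical ligand, 14 of 60 listed genes were on the array and 11 were measured. Only Dtx1, a ubiquitin ligase of the pathway, was past 2-fold, at 6.7 in D351 and 14.4 in D16, with the D351 value in the negative-control range, so 0 of the list passed towards D351 and 1 towards D16, beside 10.3% and 10.2% of all measured genes. With the floor at the highest negative control none passed. Scaled to the hybridization controls, 3 passed towards D351 and 0 towards D16, with 12 of 13 ratios positive. Of all 3956 genes measured under that scaling, 1089 passed towards D351 and 145 towards D16, and 3153 had positive ratios. As deposited, the median was 0.10, with 6 positive and 4 negative ratios and Hey1, a target gene of Notch signalling, at 8.7 in both clones. The brightest of the list, Dtx4, read 67.7 in D351 and 84.6 in D16.

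Genes nearest to each member in their 2 floored log2 intensities were sought among all measured genes. Over only 2 arrays many genes come close, and the distance says no more than that the readings were alike. For Meg3 they were Col6a4, Dusp15 and Cap2, at distances of 0.19 to 0.27 log2. For Mirg they were Cacna1c, Khdrbs3 and Pclaf, all dim in D16, at 0.087 to 0.24. For Dlk1 they were A930005H10Rik, Nmt2 and Gfm1, for Peg12 Skp2, Trit1 and Tagln2, and for Mcts2 Spata7, BC003965 and Phf10, at 0.037 to 0.17.

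The cell identity of the clones could be checked only in part. Of 15 mesoangioblast markers, 3 were on the array, and Cd34, Kit and Thy1 were not among its named genes. Abcg2 read 46.9 in D351 and 77.0 in D16, while Acta2 (15.4 in D351 and 4.7 in D16) and the VEGF receptor gene Kdr (9.5 in D351 and 1.6 in D16) were above the floor in D351 only. Markers of embryonic fibroblasts, the cells of the feeder layer, were higher in the clone with more Meg3 and Mirg RNA. Of 19 such markers, 6 were on the array and 5 measured, all 5 past 2-fold towards D351, where 10.3% of all measured genes lay, and their summed intensity was 2406 in D351 and 672 in D16. None was at 0, and Col5a2 was dim on both arrays. By their brightest probe sets, Mfap5 was 6.14-fold, Fgf10 4.76-fold, Col5a1 3.38-fold and Loxl1 3.19-fold higher in D351. The other probe set of Fgf10 was only 1.60-fold higher in D351, and those of Mfap5 and Col5a1 were dim on both arrays. The part of these cells or of this programme in the Meg3 and Mirg values was not tested. The endothelial markers on the array, Flt1 and Egfl7, lay in opposite directions. Flt1 read 87.6 in D351 and was dim at 1.3 in D16. Egfl7 was dim at 3.8 in D351 and read 19.5 in D16, and its other probe set was dim on both arrays. The haematopoietic markers Nkg7 and Itga2b were under 2-fold. Of 10 smooth muscle markers, 5 were measured, with 4 past 2-fold towards D351, led by Lmod1 at 288 in D351 and 2.6 in D16, and Flnc past 2-fold towards D16.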

How the data were processed

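Each clone, D351 and D16, had 1 array of total RNA. The deposited table gave a linear intensity per probe set on each array, as summarised by the authors; neither software nor scaling is given in the sources used here. The values were used as deposited. Of 11934 probe sets, the 66 manufacturer's controls were set aside. Values at or below 6.4, the pooled median, were raised to it before log2 was taken, and a probe set above it on at least 1 array was called measured. Genes were named from the platform annotation (7717 probe sets with 1 gene, 150 with several, 4001 unnamed here) and ordered by RefSeq, GRCm38.p6. Each gene took the values of its brightest probe set. The median intensity was 6.2 in D351 and 6.5 in D16, with 5832 probe sets above the floor in D351 and 5956 in D16. No test was possible with 1 array per clone, whose small number limits the precision, and differences were read by a fixed size of 2-fold.

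Named were every probe set of the members, list genes past 2-fold or the brightest, neighbours past 2-fold, and the 3 genes nearest in intensity. Herc2, Ube3a and the other probe sets given for some named genes were added after their values were seen. Further probe sets of other named genes, among them Nkg7, are not given. The members and lists were chosen with earlier results of these data known. Sequences are from RefSeq, GRCm38.p6; all 5 genes matched. The calculation was tested on simulated data in which only bright probe sets were changed. That test does not show how changes near the floor are read. Alternatives were other normalizations, floors, a pseudocount, a 3-fold rule and probe set choice. Tables were handled in pandas 2.3.3 and numpy 2.4.6 under Python 3.11.15, lowess was run in statsmodels 0.14.6, ranks in scipy 1.17.1, and plots in matplotlib 3.10.9.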

Additional observations from a re-analysis of the deposited data

How the results depend on the processing

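Meg3 and Mirg stayed past 2-fold towards D351 under all 10 and 9 alternatives that gave a value, and Dlk1, Peg12 and Mcts2 stayed lower in D351 under all 9, 9 and 10, failing 2-fold only with scaling to the hybridization controls. The ratio of Mirg, dim in D16 under each floor tried below, is a bound that moves with the floor, and Meg3 becomes a bound where the floor is above its 10.8 in D16. Mirg came to 6.58 log2 with the floor at the pooled 25th percentile, 3.94 at the highest negative control and 3.06 at the 75th percentile, and 3.13 as the mean over its probe sets. Meg3 was 1.86 with the floor at the 75th percentile and 3.61 by its unmarked probe set. The mean ratio of the maternally minus that of the paternally expressed members, at least 5.11 log2 with Mirg at its bound, became 6.03 with the lowest floor, 3.79 with the highest floor and 4.07 with means over probe sets. Of all probe sets, 665 passed 2-fold towards D351 and 666 towards D16, and these counts became 1808 and 233 with scaling to the hybridization controls, 1480 and 1668 with the floor at the 25th percentile, 260 and 261 at the 75th percentile, and 279 and 216 with a 3-fold rule; 420 were higher in D16 with the floor at the highest negative control. Genes above the floor on both arrays only, and Meg3 by its unmarked probe set, were chosen after seeing the data. Of the list of other imprinted genes, the first left 5 maternally expressed, all above 0, and 4 paternally expressed, all below 0. It dropped Begain and also Dio3, the only measured paternally expressed gene above 0, so the lack of an exception follows from the filter. With the floor at the 25th percentile, 5 maternally expressed genes of that list were above and 2 below 0, and 2 paternally expressed genes above and 7 below. No paired analysis was possible because each clone had 1 array. Readings near 11.2, the highest negative control, set no firm level.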
